A study of Mus musculus with 18 samples.

Results

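The loci described here are those of 8 genes of the ETS family of transcription factors that endothelial cells (ECs) use or have used: Erg, Fli1, Ets1, Ets2, Elk3, Etv6, Elf1 and Etv2. Their accessible regions were found in ATAC-seq peak lists of 18 lung EC samples, in which a peak marks a stretch of open chromatin. Peaks of all samples on chromosomes 1 to 19, X and Y were joined where they overlapped by 1 bp or more, and a joined region was retained if 2 or more samples contributed to it. A region was given to a gene when the nearest transcription start site to its midpoint belonged to that gene, or when it lay within the gene body. Of 47338 regions, 86 met this rule, 74 by their nearest start site and 12 by the gene body alone. Regions are named by the gene and by the distance in kb from its accessible start site to the middle of the region, so that Fli1 +11.5 lies 11.5 kb inside Fli1 and a minus sign means upstream.

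All samples came from FVB mice of both sexes that carry a GFP reporter of the collagen gene Col1α1, and each sample was 1 mouse. Mice were either 2 (young) or 18 (aged) months of age, and each received through the trachea either PBS (Sham) or bleomycin at 1 U/kg (Bleo), a drug that injures the alveoli and leads to fibrosis. Lungs were taken on day 30, and cells negative for CD45, EpCAM and GFP and positive for CD31 were sorted, which removes leukocytes, epithelium and collagen-expressing fibroblasts. Young Sham and Aged Bleo each held 5 mice, and Young Bleo and Aged Sham each held 4. The sort takes arterial, venous, capillary and lymphatic ECs together, so a smaller share of cells with an open site and less accessibility per cell cannot be told apart.

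ETS factors share a winged helix-turn-helix DNA-binding domain that contacts a GGAA core, and they differ in partner proteins and in whether they activate or repress. Erg and its closest relative Fli1 hold ECs in their differentiated state by activating genes of junctions and vessel stability. Ets1 and Ets2 respond to growth factor signals through the Ras-MAPK cascade, Elk3 and Etv6 are mainly repressors, Elf1 activates genes of ECs and blood cells, and Etv2 specifies the endothelial lineage in the embryo and is largely silent afterwards. Many ETS genes carry ETS sites in their own introns, through which the factors can regulate one another.

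The sequences below are 200-bp windows centred on the strongest summit of regions that the comparisons turn on, read 5′ to 3′ on the plus strand of mm10 (RefSeq GRCm38.p6), away from start sites. Capitals mark exact matches, on either strand, to a set of 5 short cores: CAGGAAG, the core bound by Erg and Fli1, CCGGAAG, the ETS core usual at promoters, TGANTCA, the AP-1 site, TGTTTAC (forkhead factors), and AGATAAG (bound by GATA factors). The first 3 windows are those whose strength in the peak lists differed between groups, and lie at chr16:95750333-95750532 between genes 48.1 kb past the Ets2 start, at chr6:134189735-134189934 in an Etv6 intron and at chr9:32506230-32506429 in a Fli1 intron.
Ets2 +48.1: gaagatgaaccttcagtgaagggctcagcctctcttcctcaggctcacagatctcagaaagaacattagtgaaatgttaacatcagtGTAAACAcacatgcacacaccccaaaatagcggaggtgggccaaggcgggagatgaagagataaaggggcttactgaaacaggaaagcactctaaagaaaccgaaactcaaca
Etv6 +154.2: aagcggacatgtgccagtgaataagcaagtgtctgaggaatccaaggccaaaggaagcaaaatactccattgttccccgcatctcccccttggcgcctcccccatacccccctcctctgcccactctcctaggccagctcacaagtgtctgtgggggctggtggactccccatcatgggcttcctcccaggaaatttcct
Fli1 +35.1: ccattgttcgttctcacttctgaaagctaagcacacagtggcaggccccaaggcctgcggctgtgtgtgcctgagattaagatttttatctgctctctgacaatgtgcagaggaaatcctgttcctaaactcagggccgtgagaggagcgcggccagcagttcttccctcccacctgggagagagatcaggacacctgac

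The next 7 windows belong to regions whose presence in the lists differed between groups. Fli1 +11.5 (chr9:32529705-32529904) and Elf1 +54.4 (chr14:79535380-79535579) are intronic and were called less often in Aged Sham than in Young Sham. Etv6 +25.3 (chr6:134060886-134061085), also intronic, was called less often in Aged Bleo than in each other group. Ets1 +47.8 (chr9:32743666-32743865), Elk3 +28.3 (chr10:93282739-93282938) and Etv6 +150.8 (chr6:134186400-134186599) lie in introns, Ets1 +110.3 (chr9:32806198-32806397) lies beyond the 3′ end of Ets1, and all 4 were called more often in Young Bleo than in Young Sham.
Fli1 +11.5: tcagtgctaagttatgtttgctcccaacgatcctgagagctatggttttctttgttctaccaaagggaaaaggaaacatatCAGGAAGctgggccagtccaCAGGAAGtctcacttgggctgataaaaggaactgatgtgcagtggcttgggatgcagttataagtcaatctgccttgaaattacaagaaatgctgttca
Elf1 +54.4: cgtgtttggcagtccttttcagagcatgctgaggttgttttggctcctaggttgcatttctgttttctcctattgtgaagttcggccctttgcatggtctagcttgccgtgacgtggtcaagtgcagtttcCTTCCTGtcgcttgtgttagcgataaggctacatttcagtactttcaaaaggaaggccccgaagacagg
Etv6 +25.3: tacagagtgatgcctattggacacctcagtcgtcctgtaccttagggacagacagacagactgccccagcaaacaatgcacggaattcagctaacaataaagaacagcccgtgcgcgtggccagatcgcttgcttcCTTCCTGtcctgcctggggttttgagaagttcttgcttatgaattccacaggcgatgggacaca
Ets1 +47.8: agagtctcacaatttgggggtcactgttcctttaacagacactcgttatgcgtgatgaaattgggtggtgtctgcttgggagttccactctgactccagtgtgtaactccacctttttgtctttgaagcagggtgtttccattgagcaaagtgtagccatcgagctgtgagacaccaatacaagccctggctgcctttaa
Elk3 +28.3: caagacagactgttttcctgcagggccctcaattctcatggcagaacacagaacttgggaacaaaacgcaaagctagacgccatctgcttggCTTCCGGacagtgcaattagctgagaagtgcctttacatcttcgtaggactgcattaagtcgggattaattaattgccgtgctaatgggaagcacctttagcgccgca
Etv6 +150.8: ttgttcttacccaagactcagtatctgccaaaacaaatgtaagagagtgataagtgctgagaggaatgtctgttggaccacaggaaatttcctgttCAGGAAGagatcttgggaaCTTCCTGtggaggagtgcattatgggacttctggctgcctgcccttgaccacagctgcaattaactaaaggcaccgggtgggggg
Ets1 +110.3: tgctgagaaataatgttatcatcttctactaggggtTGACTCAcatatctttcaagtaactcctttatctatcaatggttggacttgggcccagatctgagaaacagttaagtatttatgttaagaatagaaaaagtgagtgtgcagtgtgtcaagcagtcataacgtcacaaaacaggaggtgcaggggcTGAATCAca

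The last window, Erg +10.2 (chr16:95449397-95449596), is shown because it held the most matches of any member region, 3 Erg cores and 2 forkhead cores, inside the Erg gene itself.
Erg +10.2: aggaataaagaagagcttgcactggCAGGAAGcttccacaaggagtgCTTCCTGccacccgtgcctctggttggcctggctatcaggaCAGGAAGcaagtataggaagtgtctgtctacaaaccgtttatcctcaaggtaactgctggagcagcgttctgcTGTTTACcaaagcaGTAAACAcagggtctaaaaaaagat

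The Erg core was present in the windows of 18 of 86 member regions (20.9%) against 9463 of all 47338 regions (20%). It was found at 4 regions of Erg, 4 of Ets1, 4 of Etv6, 3 of Elk3 and 1 each of Fli1, Ets2 and Elf1. The promoter-type ETS core was present in 5 member windows (5.81%, all regions 6.46%) and the forkhead core in 4 (4.65%, all regions 4.43%). AP-1 sites were present in 12 (14%, all regions 8.72%), 6 of them at Ets1 and 3 at Etv6. GATA cores were present in 8 (9.3%, all regions 3.37%). The 2 ETS cores differ in their second letter and cannot share a match. These are matches of letters in a window and were not tested as binding sites.

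Libraries held between 21050 and 40883 nuclear peaks, with group means of 35239 in Young Sham, 36699 in Young Bleo, 28882 in Aged Sham and 31093 in Aged Bleo. Of the member regions, 27 to 73 were called per sample, with 53.8 ± 9.44 in Young Sham, 61 ± 7.79 in Young Bleo, 44.5 ± 6.61 in Aged Sham and 49 ± 20.6 in Aged Bleo (mean ± SD). Both extremes were Aged Bleo libraries. The deposited lists carry a code of 6, 7 or 8, which may be a sequencing lane but is not explained in the labels. Code 8 held all 5 Young Sham with Young Bleo 4, code 7 held Aged Sham 1 to 3 with Young Bleo 1 to 3, and code 6 held the 5 Aged Bleo with Aged Sham 4. No code held Young Sham together with aged mice, or Aged Bleo together with Young Bleo. Those comparisons thus cannot tell age from what the code marks. Of 10 endothelial marker genes, 9 or 10 had a promoter peak in each young library, 7 to 9 in Aged Sham and 6 to 10 in Aged Bleo, and of 8 leukocyte genes none did in any library. Foxj1 of 6 epithelial genes, Pdgfra of 5 fibroblast genes and Myh11 of 4 mural genes had a promoter peak in all 18, and no other gene of these lists did in any, so the counts for other cell types were equal in every group. The part of the endothelial marker counts in the results was not tested.

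Every member but Etv2 had accessible chromatin at a start site in all 18 samples. Etv2 (chr7:30633616-30635852) had no member region. A single peak was called in it, in Aged Sham 2, at chr7:30634726-30634951, 1013 bp inside the gene, where 11 fragments lay at the summit against 1.16 expected (fold enrichment 5.55). The nearest regions, 9.67 kb away at Cox6b1 and 14.4 kb away at Rbm42, were called in all 18 samples. Its promoter was thus below the calling threshold in every library while its neighbours were above it.

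Ets1 held the most regions of the members, 27, and 99.9% of all annotated genes, with or without a region, had fewer. Of these, 5 were called in all 18 samples and 9 in at most 3. Its regions ran from -105.9 kb to +110.3 kb relative to the start at chr9:32696037, and thus beyond the gene body (chr9:32636241-32757820, plus strand) on both sides. The other Ets1 start, at chr9:32636241, had a peak in Aged Bleo 2 alone. Ets2 (chr16:95702407-95721049, plus strand), the shorter paralogue, held 7 regions, of which 2 were called in all samples, the promoter and Ets2 +48.1.

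Erg (chr16:95359169-95586593, minus strand) held 11 regions, of which 5 were called in all 18 samples. Of its annotated starts, the one at chr16:95459348 was open in every sample and those at 95530365 and 95586593 had no peak in any. The 4 other constant regions, Erg +86.2, +20.1, +10.2 and -4.6, lie in introns. Fli1 (chr9:32422204-32541452, minus strand) held 8 regions, and those called in all samples were the promoter, Fli1 +35.1 and Fli1 -15.0.

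Elk3 (chr10:93247416-93311159, minus strand) held 11 regions, none called in fewer than 5 samples, and 4 in all 18. All lay inside the gene, within 37.4 kb of the start. Etv6 (chr6:134035700-134270158, plus strand) held 16 regions, 4 of them called in all samples: the promoter, Etv6 +116.5, Etv6 +154.2 and Etv6 +207.9. The last of these lies on an exon of LOC118027456, a non-coding RNA on the other strand within an Etv6 intron, to which 8 of the Etv6 regions are nearest. Elf1 (chr14:79481194-79582491, plus strand) held 6 regions, of which only the promoter, shared with the start of Wbp4, was called in all samples.

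**Figure D1:**
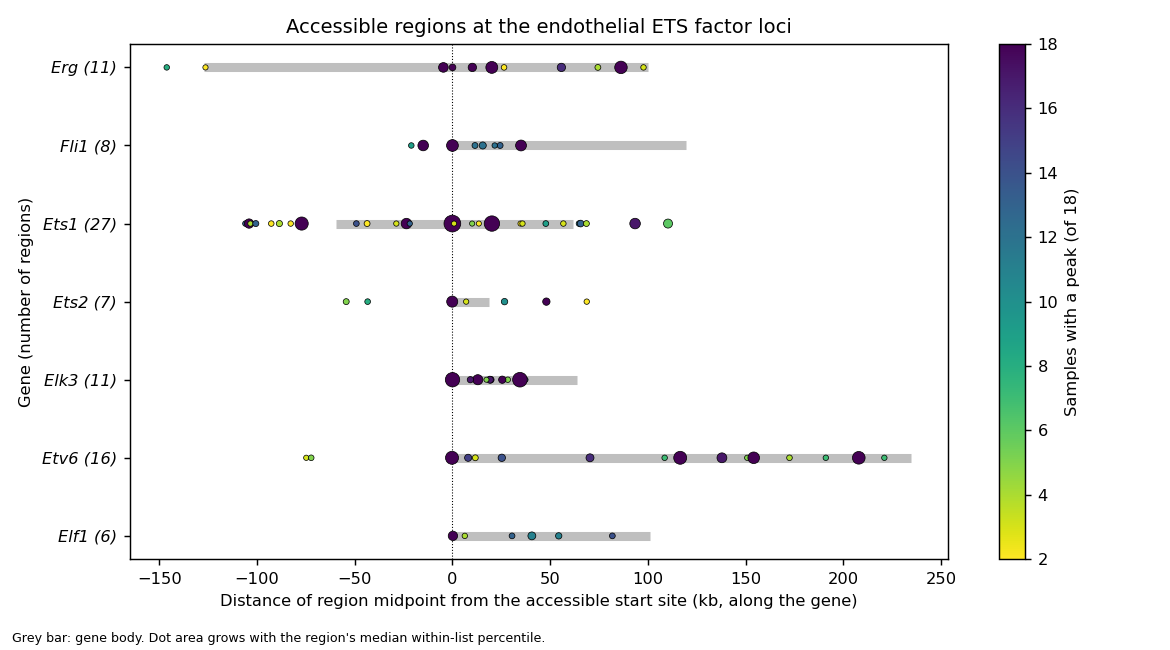
Member regions by distance in kb from the accessible start site (horizontal axis, transcription to the right) for each gene, with colour for the number of the 18 samples with a peak, dot area for the median within-list percentile of fold enrichment, and a grey bar for the gene body. The 24 regions called in all 18 samples lie at the start sites and, for every gene with regions but Elf1, at 1 or more sites in introns or flanks, and Ets1, with 27 regions, is the most crowded locus.

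By annotation, 55 member regions were intronic, 23 intergenic, 7 at promoters and 1 exonic. Of the 86, 24 were called in all 18 samples (27.9%, all regions 36.8%) and 16 in only 2 or 3 samples (18.6%, all regions 14.1%). Strength is given as the percentile of a region's fold enrichment among the 17432 regions called in all 18 samples, taken within the same list, since lists differed in depth. Fold enrichment compares fragments at the summit with those expected from the background. At some regions the expected value equals the background coverage of the whole list, as at Erg +97.8 in Young Sham 1 (1.26).

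The 7 promoters differed widely in this rank. The Ets1 promoter was the strongest, with a median percentile of 86.6, followed by Elk3 at 61.6, Etv6 at 48.7, Fli1 at 38.4, Ets2 at 32.7, Elf1 at 20.9 and Erg at 6.31. At the Erg promoter the percentiles were 7.62, 3.65, 4.87, 5.17 and 14.7 in Young Sham, 2.13, 2.63, 4.88 and 10.5 in Young Bleo, 6.53, 5.49, 9.99 and 9.05 in Aged Sham, and 6.65, 6.22, 9.55, 1.73 and 6.4 in Aged Bleo. All 4 groups overlapped at low ranks among the regions called in all samples. The Erg promoter held 12 to 77 fragments at its summit, and in Aged Sham 1 and 3 and Aged Bleo 4 and 5 it held no more (24, 27, 12 and 26) than the median peak of the same list (29, 30, 26 and 26). In every other library it held more than the median peak of the same list. The median of the 7 promoters was 38.4, against 64.2 for the 10007 promoter regions called in all samples.

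Away from promoters the 17 constant member regions had a median percentile of 31.3, beside 31.8 for all 7425 such regions. The strongest were Ets1 +20.2 at 71.7 and Elk3 +34.5 at 64.0. In Erg the strongest region was the intronic Erg +86.2 (chr16:95372845-95373400) at 44.4, well above the Erg promoter, and in every sample its rank exceeded that of the promoter. The 62 member regions missing from at least 1 sample had a median percentile of 2.00, close to the 2.49 of all regions not called in every sample, and the strongest of them was Ets1 +93.4 at 29.1, called in 17 samples.

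The number of called regions per gene was compared first, to see whether a whole locus opened or closed. Called regions of Elf1 numbered 6, 5, 5, 6 and 3 in Young Sham, 4, 5, 5 and 3 in Young Bleo, 3, 3, 3 and 4 in Aged Sham, and 5, 6, 3, 1 and 1 in Aged Bleo. Aged Sham mice lay below Young Sham mice except for Young Sham 5, whose 3 regions fell within their range. The means were 5.0 ± 1.22 and 3.25 ± 0.5, and the difference did not pass an exact permutation test, two-sided (p = 0.0635, and 0.263 after adjustment over 3307 genes).

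Ets1 had 15, 18, 12, 12 and 10 called regions in Young Sham, 14, 18, 17 and 14 in Young Bleo, 9, 13, 9 and 11 in Aged Sham, and 22, 20, 9, 5 and 10 in Aged Bleo. Aged Bleo thus held both the highest and the lowest counts, and the counts of 22 and 20 came from its longest lists. Etv6 had 9.8 ± 2.39 called regions in Young Sham, 12.2 ± 2.99 in Young Bleo, 8.0 ± 0.816 in Aged Sham and 9.0 ± 4.0 in Aged Bleo. Elk3 had 8.2 ± 0.837, 9.5 ± 1.0, 7.25 ± 1.71 and 8.6 ± 2.3 in the same order, and Fli1 6.8 ± 1.3, 7.25 ± 0.5, 5.25 ± 1.5 and 5.6 ± 2.51. Erg had 7.2 ± 1.1, 7.25 ± 0.957, 7.0 ± 0.816 and 6.4 ± 1.7, and Ets2 had 3.4 ± 1.7, 4.75 ± 1.26, 3.25 ± 0.957 and 3.0 ± 1.41.

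None of the 7 genes with regions reached p = 0.05 in the exact permutation tests on all libraries and peaks in any of 5 comparisons. Under other settings Elf1 reached it in Aged Sham against Young Sham with a −log10 q of at least 5 (25.2% of all genes did) and without Young Sham 5 (16.4%), and Ets1 reached it there with an equal number of peaks (10.5%). Elk3 reached it in Young Bleo against Young Sham without Young Bleo 4 (9.95%), and none of these passed adjustment. With all libraries and peaks, the share of the 3307 genes tested with at least 5 regions that reached it was 21.9% for Aged Sham against Young Sham, 13% for Young Bleo against Young Sham, 9.04% for Aged Bleo against Young Sham, 1.06% for Aged Bleo against Aged Sham and 6.44% for Aged Bleo against Young Bleo. No gene passed after adjustment in any of them, and the smallest adjusted p ranged from 0.189 to 1. When each sample's share of all regions was subtracted, Erg was 10.9 percentage points higher in Aged Sham than in Young Sham (exact permutation p = 0.00794, adjusted 0.186), where 15.8% of genes had p of at most 0.05. In that measure Elk3 was 12.6 points higher in Aged Bleo than in Young Sham (exact permutation p = 0.00794, adjusted 0.136), against 20.6% of genes. The number of called Erg regions itself was about the same in these groups (7.2 and 7.0), while Aged Sham lists were shorter.

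**Figure D2:**
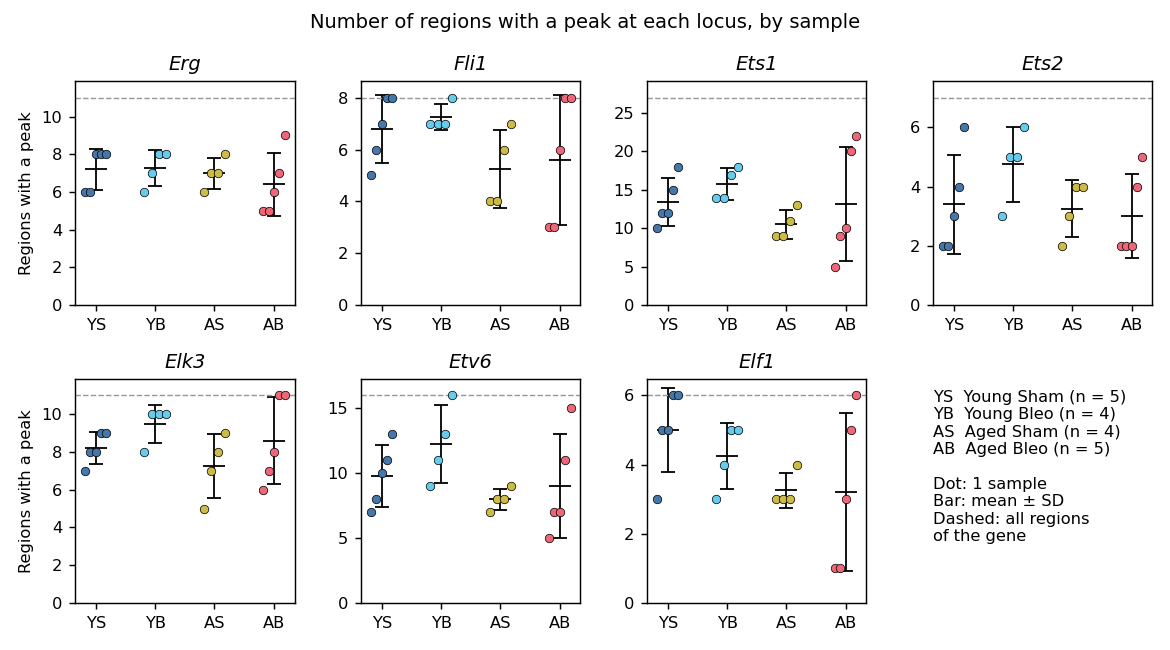
Number of called regions per gene (vertical axis) in each sample, with group mean and SD as bars, in the 4 groups. The groups overlap except at Ets1, where Young Bleo (14 to 18) lies above Aged Sham (9 to 13) and Aged Bleo spans 5 to 22 regions.

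For each region on its own, Fisher's exact test (two-sided) then compared how many samples of each group had a peak. With 4 or 5 mice per group the smallest reachable p was 0.00794, and no region of the 47338 passed after adjustment in any comparison, so the calls below rest on unadjusted p-values of at most 0.05.

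Without injury, 3 member regions were called less often in Aged Sham than in Young Sham and 0 more often, beside 4.90% and 0.264% of all regions in those directions, so the members' share (3.49%) was below that of all regions. With the same number of peaks taken from each list, 4 of 43 member regions were called less often and 0 more often, beside 1.56% and 1.36% of all regions, and for Ets1 -105.9 the share of mice with a peak was then 5 percentage points higher in Aged Sham (exact p = 1.0). With all peaks, the 3 were Fli1 +11.5, Ets1 -105.9 and Elf1 +54.4, each with a peak in 5 of 5 Young Sham and 1 of 4 Aged Sham mice (exact p = 0.0476). At Fli1 +11.5 (chr9:32529624-32530208), an intronic site with 2 Erg cores, the fragments at the summit were 22, 24, 28, 19 and 15 in Young Sham, 12, 17, 23 and 12 in Young Bleo, 10 in Aged Sham 1, and 20 and 11 in Aged Bleo 1 and 2. It was thus called in all 9 young mice and in 3 of 9 aged mice, at low coverage throughout. An intronic Fli1 enhancer of blood and endothelium is known at about this distance, but its identity with this region was not tested.

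Elf1 +54.4 (chr14:79535351-79535784) held 18, 18, 17, 17 and 15 fragments in Young Sham, 20, 24 and 16 in Young Bleo 2 to 4, 15 in Aged Sham 2, and 15 and 16 in Aged Bleo 1 and 2. Values in the aged mice with a call were close to those of young mice, and the other aged mice had no call. Ets1 -105.9 (chr9:32589976-32590262) was called in 5 Young Sham mice, 4 Young Bleo mice, 1 Aged Sham mouse and 3 Aged Bleo mice. The Aged Bleo calls of all 3 regions came from Aged Bleo 1 and 2, with the 2 longest aged lists, and for Ets1 -105.9 also from Aged Bleo 5. Leaving out any 1 of the 9 libraries left 0 or 1 of the 3 calls. Aged Sham lists were shorter than Young Sham lists (28882 against 35239 peaks on average), and the part of list length and of the code in these calls was not tested.

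Between the young groups, 5 member regions were called more often in Young Bleo than in Young Sham and 0 less often, beside 3.98% and 1.96% of all regions, so the members' share (5.81%) was near that of all regions. With the same number of peaks taken from each list, 2 of 43 member regions were called more often and 3 less often, beside 3.66% and 3.19% of all regions, so the calls were then no longer all in 1 direction. Ets1 +47.8 had a peak in 1 of 5 Young Sham and 4 of 4 Young Bleo mice, and Ets1 +110.3, Elk3 +28.3, Etv6 +150.8 and Etv6 +172.5 each in 0 of 5 and 3 of 4 (exact p = 0.0476 for each).

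Ets1 +47.8 (chr9:32743619-32744010) held 18 fragments in Young Sham 2, and 16, 14, 22 and 18 in Young Bleo. It held 22, 32, 11 and 12 in Aged Bleo 1, 2, 3 and 5 and was called in no Aged Sham mouse. Each bleomycin group thus had a peak there in 4 mice and each sham group in at most 1. Ets1 +110.3 (chr9:32806153-32806528), with 2 AP-1 sites, held 18, 31 and 15 fragments in Young Bleo 1 to 3, 10 in Aged Sham 2, and 34 and 49 in Aged Bleo 1 and 2. In Aged Bleo 2 it stood at percentile 69.9 and in Aged Bleo 1 at 37.4, and in the other 3 Aged Bleo mice it had no peak.

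Elk3 +28.3 (chr10:93282644-93283044) held 18, 22 and 23 fragments in Young Bleo 1 to 3 and 22 and 24 in Aged Bleo 1 and 2. Etv6 +150.8 (chr6:134186404-134186630), with 2 Erg cores, held 15, 18 and 23 in Young Bleo 1, 3 and 4 and 13 and 11 in Aged Bleo 2 and 4. Etv6 +172.5 (chr6:134207862-134208439) held 16, 10 and 13 in Young Bleo 1 to 3 and 15 in Aged Bleo 1. No sham mouse of either age had a peak at any of these 3.

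Counted over the 5 regions, Young Sham mice had 0, 1, 0, 0 and 0 peaks and Young Bleo mice 5, 4, 5 and 2, values that the choice of regions fixes. Aged mice took no part in that choice, and among them Aged Sham had 0, 1, 0 and 0 and Aged Bleo 4, 4, 1, 1 and 1. Young Sham lists held 30073 to 38747 peaks and Young Bleo lists 33980 to 39420, with the higher mean in Young Bleo, and the Aged Bleo mice with 4 regions had the longest aged lists. The part of list length in these calls was not tested. In code 8, which holds all Young Sham mice, Young Bleo 4 had peaks at Ets1 +47.8 and Etv6 +150.8 and not at the other 3. Leaving out any 1 of the 9 libraries left 0 to 3 of the 5 calls.

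In aged mice, bleomycin was compared with all 3 other groups. Etv6 +25.3 (chr6:134060697-134061209) was called less often in Aged Bleo than in Young Sham, Aged Sham and Young Bleo (exact p = 0.0476 in each). Its fragments were 31, 40, 35, 32 and 16 in Young Sham, 20, 29, 32 and 17 in Young Bleo, 12, 17, 14 and 18 in Aged Sham, and 12 in Aged Bleo 2. It was called in all 13 mice of the other groups and in 1 of 5 Aged Bleo mice. Aged Sham values, 12 to 18, overlapped those of young mice, 16 to 40, at the low end. Aged Bleo 1, with 37595 peaks, was among the 4 without it, and within code 6 it was called in Aged Sham 4 and in 1 of 5 Aged Bleo mice. The loss against Young Sham held when any 1 of the 10 libraries was left out, with exact p from 0.00794 to 0.0476. Against Aged Sham and Young Bleo it held only without Aged Bleo 2 (exact p = 0.0286) and otherwise reached 0.143.

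Against Young Sham, Etv6 +25.3 was the only member called less often in Aged Bleo and 0 members were called more often, beside 3.01% and 0.201% of all regions. With the same number of peaks taken from each list, 3 of 43 were called less often (all regions 1.97%), and with peaks covering 50% of a region 5 were (all regions 5.8%). Without Aged Bleo 1 or Aged Bleo 2, 5 were called less often (all regions 5.21% and 5.63%), without Young Sham 3 or 4, 2 were (4.25% and 3.55%), and without Young Sham 5, 3 were (5.42%). Without Young Sham 2 or Aged Bleo 4, 1 was called less often (3.45% and 3.12%) and 1 more often (0.279% and 0.968%). Against Aged Sham, 1 member was called less often and 1, Ets1 +47.8, more often, beside 0.410% and 0.475% of all regions. With the same number of peaks taken from each list these counts were 0 and 1 (all regions 0.937% and 0.542%). With peaks covering 50% of a region they were 0 and 0 (0.91% and 0.264%), so the Etv6 +25.3 call against Aged Sham was lost under both. Against Young Bleo, 2 were called less often, Etv6 +25.3 and Ets1 +68.6, and 0 more often, beside 2.44% and 0.123% of all regions. Ets1 +68.6 (chr9:32764445-32764737) held 13 fragments in Young Sham 1 and 21, 27 and 19 in Young Bleo 2 to 4 and was called in no aged mouse. No code held both Aged Bleo and Young Bleo. Leaving out any 1 of the 9 libraries left 0 or 1 calls in each of these last 2 comparisons.

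**Figure D3:**
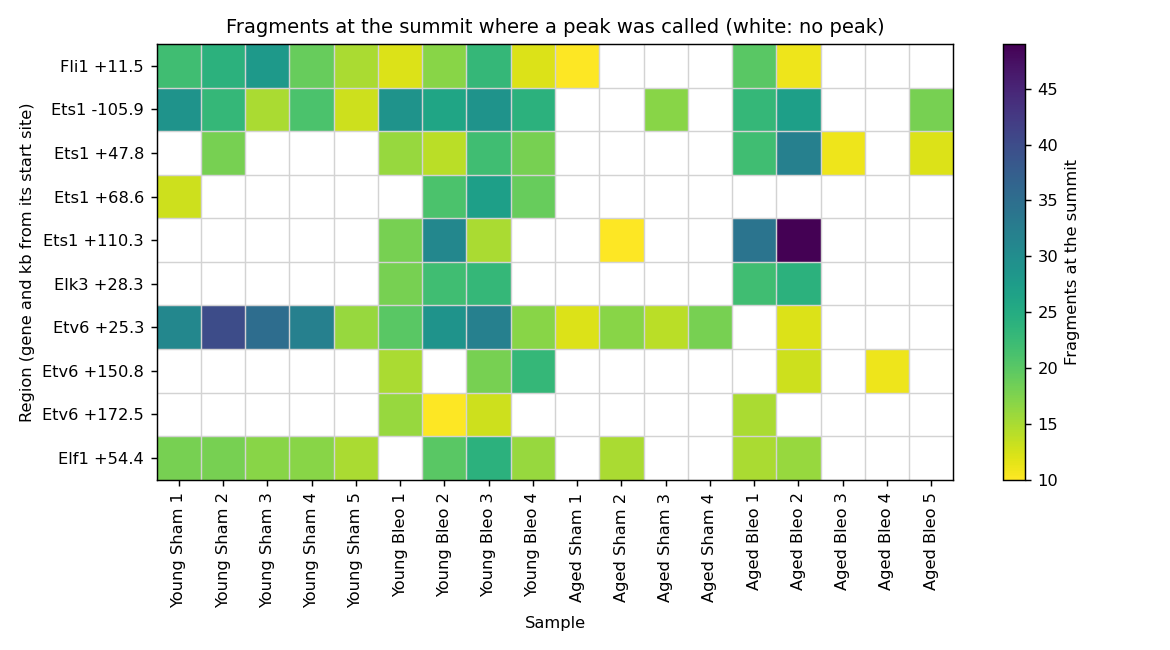
Fragments at the summit (colour) in each of the 18 samples (columns) at the 10 member regions (rows) whose presence passed Fisher's exact test without adjustment in at least 1 comparison, with white where no peak was called. Fli1 +11.5, Ets1 -105.9 and Elf1 +54.4 are filled in Young Sham and mostly empty in Aged Sham, Etv6 +25.3 is filled in every group but Aged Bleo, and the 5 regions called more often in Young Bleo than in Young Sham have peaks among aged mice mainly in Aged Bleo 1 and 2.

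Taken over all 86 member regions, the mean share of samples with a peak was 10.8 percentage points lower in Aged Sham than in Young Sham (all regions 12.8 lower) and 8.37 points higher in Young Bleo than in Young Sham (all regions 3.18 higher). In Aged Bleo it was 5.58 points lower than in Young Sham (all regions 9.0 lower), 5.23 points higher than in Aged Sham (all regions 3.76 higher) and 14 points lower than in Young Bleo (all regions 12.2 lower). The first 3 of these share the Young Sham mice.

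Strength was tested with limma for the 24 member regions called in all 18 samples, in a fit over all 17432 such regions, and p-values were adjusted over all of them. Only 3 members passed in any comparison, all away from promoters and all weaker than in Young Sham.

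Ets2 +48.1 (chr16:95750249-95750673), an intergenic site downstream of Ets2, ranked at percentiles 18.9, 17.2, 18.2, 22.6 and 25.9 in Young Sham, 9.09, 3.87, 10.7 and 4.45 in Young Bleo, 13.1, 1.52, 2.98 and 1.86 in Aged Sham, and 9.71, 3.82, 5.5, 9.47 and 19.8 in Aged Bleo. Every Young Sham mouse stood above every Young Bleo and Aged Sham mouse, and of the Aged Bleo mice only the fifth reached the Young Sham range. The fragments at its summit were 28, 33, 30, 36 and 24 in Young Sham, 20, 16, 24 and 17 in Young Bleo, 15, 11, 11 and 12 in Aged Sham, and 21, 15, 13, 11 and 18 in Aged Bleo. Its rank was 15.7 percentage points lower in Aged Sham (SE 3.20, limma adjusted p = 0.0289), 13.5 points lower in Young Bleo (SE 3.20, adjusted p = 0.0282) and 10.9 points lower in Aged Bleo (SE 3.01, adjusted p = 0.0285) than in Young Sham. These comparisons share the Young Sham mice. The Ets2 promoter, by contrast, ranked from 26.4 to 40.1 over all 18 mice, with overlapping groups.

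The calls at Ets2 +48.1 depended on single libraries. That of Aged Sham was lost without Young Sham 4 or Aged Sham 2, 3 or 4 (limma adjusted p from 0.0528 to 0.0815). That of Young Bleo was lost without Young Sham 4 or 5 or Young Bleo 1, 2 or 4 (limma adjusted p from 0.0558 to 0.103), and that of Aged Bleo without Young Sham 4 or 5 or Aged Bleo 2 or 3 (limma adjusted p from 0.0582 to 0.0634). The Aged Bleo call was also lost with log2 fragments at the summit (limma adjusted p = 0.1) and the Young Bleo call with centred log2 fold enrichment. In code 8, Young Bleo 4 stood at 4.45 and the 5 Young Sham mice from 17.2 to 25.9.

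Etv6 +154.2 (chr6:134189550-134190152), an intronic site, ranked at 48.8, 56.4, 46.2, 48.0 and 41.6 in Young Sham, 21, 38.5, 23.9 and 45.0 in Young Bleo, 31.8, 52.2, 39.6 and 35.4 in Aged Sham, and 28.0, 15.3, 25.3, 24.8 and 33.5 in Aged Bleo. All 5 Aged Bleo mice lay below all 5 Young Sham mice, and the other groups lay between and overlapped both. The rank was 22.8 points lower in Aged Bleo than in Young Sham (SE 5.48, limma adjusted p = 0.0151). It passed when any 1 library was left out. No code held both groups, and in code 8 Young Bleo 4 stood at 45.0, within the Young Sham range.

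Fli1 +35.1 (chr9:32506094-32506627), also intronic, ranked at 50.4, 40.1, 44.4, 31.6 and 48.0 in Young Sham, 29.3, 25.2, 31.1 and 28.1 in Young Bleo, 18.7, 47.5, 52.3 and 44.1 in Aged Sham, and 32.4, 29.9, 12.9, 6.86 and 26.9 in Aged Bleo. Both bleomycin groups lay low, with Aged Bleo 1 just inside the Young Sham range, while 2 of 4 Aged Sham mice lay within that range, 1 above it and 1 below it. It was 21.1 points lower in Aged Bleo than in Young Sham (SE 6.30, limma adjusted p = 0.0399). The call was lost without Young Sham 1, 2, 3 or 5 or Aged Bleo 3, 4 or 5 (limma adjusted p from 0.053 to 0.0924), with the replicate number as a block (limma adjusted p = 0.0556) and with log2 fragments at the summit (limma adjusted p = 0.108). In code 8, Young Bleo 4 stood at 28.1 and the Young Sham mice from 31.6 to 50.4.

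**Figure D4:**
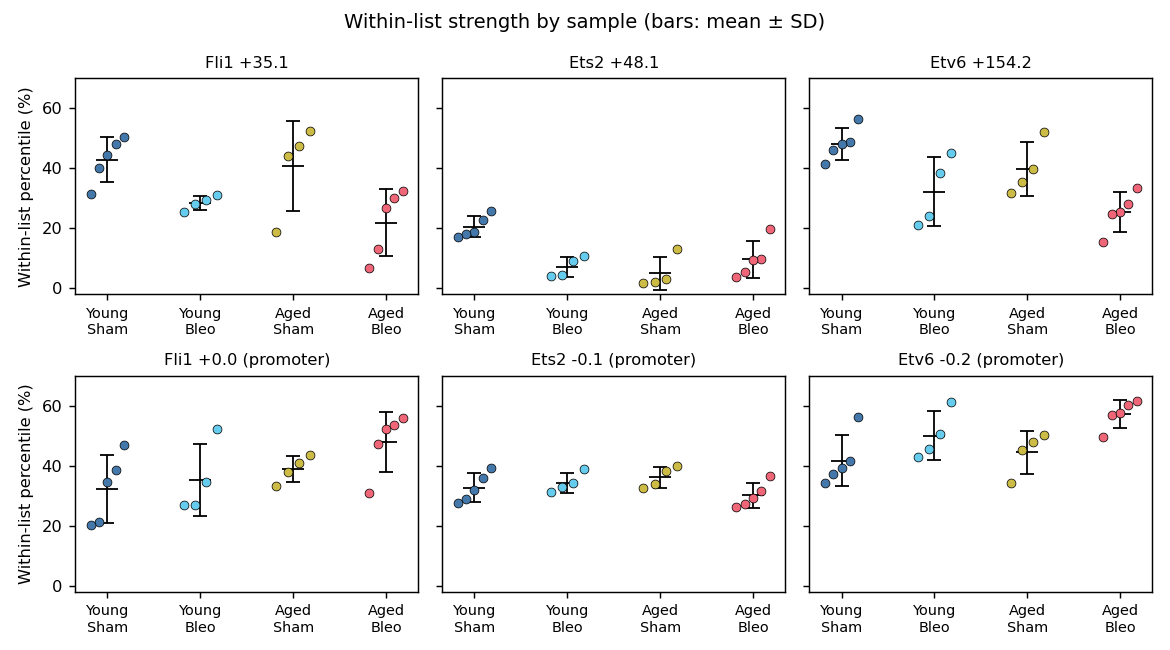
Within-list percentile of fold enrichment (vertical axis) in each sample for Fli1 +35.1, Ets2 +48.1 and Etv6 +154.2 and for the promoters of the same genes, by group, with group mean and SD. Young Sham mice stand at 31.6 to 50.4, 17.2 to 25.9 and 41.6 to 56.4 at the 3 distal sites, above most mice of Aged Bleo, whereas promoter values of the groups overlap.

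Among the 24 members, limma thus called 1 in Aged Sham against Young Sham, beside 0.981% of all regions, 1 in Young Bleo against Young Sham, beside 3.17%, and 3 in Aged Bleo against Young Sham, beside 10.6%. It called 0 in Aged Bleo against Aged Sham, beside 0.677%, and 0 in Aged Bleo against Young Bleo, beside 0.201%. At an unadjusted p of at most 0.05 these were 4 members (16.7%, all regions 16.1%) and 2 members (8.33%, all regions 17%). The interaction of age and bleomycin called 0 members (2 unadjusted, 8.33%) and 0% of all regions (1627 of 17432 unadjusted, 9.33%). At Ets2 +48.1 that interaction was 18.3 points (SE 4.52, limma adjusted p = 0.234), so a different response of young and aged mice there was not shown. The median member difference was 0.44, 0.81 and 2.42 points in the first 3 comparisons, against 0.44, -0.03 and 0.35 over all regions.

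No promoter was called with percentiles and all libraries, but some were under other settings. With log2 fragments at the summit, limma called the Etv6 promoter in Young Bleo against Young Sham and those of Elk3 and Elf1 in Aged Bleo against Aged Sham. In Aged Bleo against Young Sham, the Etv6 promoter was called without Young Sham 5 and the Ets1 promoter without Aged Bleo 2. In Aged Bleo against Young Sham the Etv6 promoter was 15.5 points higher (SE 5.11, limma adjusted p = 0.0588) and the Fli1 promoter 15.8 points higher (SE 6.40, limma adjusted p = 0.117), neither past the threshold. The Etv6 promoter ranked at 39.2, 34.2, 37.4, 41.6 and 56.2 in Young Sham and at 60.3, 56.9, 49.6, 57.8 and 61.6 in Aged Bleo, where the groups overlapped through Young Sham 5. At Fli1 -15.0, upstream of the gene, the rank was 16.9 points lower in Aged Bleo (SE 6.21, limma adjusted p = 0.0856) and 18.4 points lower in Young Bleo (SE 6.58, limma adjusted p = 0.141) than in Young Sham. Fli1 -15.0 was called in Young Bleo with log2 fragments at the summit and in Aged Bleo without Aged Bleo 2. The Erg promoter and the Erg intronic regions gave no difference past the threshold in any comparison.

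The 19 other ETS genes, taken as a comparison, held 56 regions. Their promoters were open in all 18 samples for 10 of the 19 genes, in 16 samples for Elf3, and in none for 8, including Spi1 of myeloid cells and Ehf, Elf5 and Spdef of epithelium. Of those 56 regions, 3 were called less often in Aged Sham than in Young Sham and 4 more often in Young Bleo than in Young Sham. Against the 3 and 5 of the 86 member regions in the same directions, the difference between the sets was not tested.

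The record of the Erg locus across the 18 samples, taken as its share of called regions minus that of all regions, was most like that of Ski (Pearson r = 0.751), A330074K22Rik (r = 0.702) and Mdfic (r = 0.671) among 842 genes with at least 10 regions. These correlations are descriptions over samples that share list length and code.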

How the data were processed

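Sorted lung ECs of 18 mice were profiled by Omni-ATAC. According to the study's methods and the submitters' processing notes, the authors aligned paired-end reads to mm10 with BWA 0.5.9, removed duplicates with Picard 1.67 and ran MACS2 2.0.10 on every sample separately to call peaks (FDR 1%). The deposited lists give each peak's position, its fold enrichment (a ratio over the expected background) and −log10 p and −log10 q values. They give no read totals, so the depth is known only from these values. Fragments at the summit and those expected were solved from fold enrichment and −log10 p with a pseudocount of 1, and came out whole within 0.01 for 99.99% of peaks with −log10 p up to 250 in the list with the lowest share, with medians of 26 to 35 fragments. Counting error and the number of mice limit the precision.

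Groups were taken from the sample labels. Peaks were merged into regions (at least 1 bp of overlap, at least 2 samples, 19 mitochondrial peaks left out), annotated with 45756 RefSeq transcripts (promoter, 1000 bp upstream to 100 bp downstream of a start), and given, within each list, the percentile of their fold enrichment among the regions called in all samples. Presence per region was compared by Fisher's exact test, two-sided (scipy 1.17.1). Strength was tested with limma 3.58.1 in R 4.3.3 (4 groups, empirical Bayes with trend, called at an adjusted p of at most 0.05). The number of called regions per gene with at least 5 regions was tested with an exact permutation test, two-sided on the absolute difference in means. All p-values were adjusted by Benjamini-Hochberg over all regions or genes tested. Python 3.11.15, numpy 2.4.6, pandas 2.3.3 and pysam 0.24.0 were used, and the tests were checked on simulated data. The text names promoters, each gene's strongest region and every region that passed a test. Other named regions were chosen after their values were seen. Alternatives were a −log10 q of at least 5, regions in at least 3 samples, 50% cover and an equal number of 21050 peaks per list. Others were annotation with the NM transcripts of RefSeq alone, other measures of strength, a replicate block and leaving out each sample. The members and gene lists were chosen with earlier results of these data known.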

Additional observations from a re-analysis of the deposited data

Results flagged for a closer look

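Of 124 groups of 4 or 5 mice examined for a single mouse far from the rest, 5 stood out (4.03%), and chance alone sets apart about 1 in 20. The number given is the gap from that mouse to its nearest neighbour, divided by the range of its group. At the Ets1 promoter in Aged Bleo it was 0.774, with Aged Bleo 2 at percentile 76.4 and the other 4 mice from 88.9 to 92.5. At Ets2 +48.1 in Aged Sham it was 0.874, with Aged Sham 1 at percentile 13.1 and the other 3 mice from 1.52 to 2.98. The other cases are whole numbers that could hardly vary, each with a gap of 1.0: in Aged Sham, Elf1 had 4 called regions in 1 mouse and 3 in the others, and in Young Bleo, Elk3 had 8 in 1 mouse and 10 in the others, and Fli1 had 8 in 1 mouse and 7 in the others.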

How the results depend on the processing

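With the same number of peaks (21050) taken from each list, 43 member regions remained of 86. Presence calls then numbered 4 less often in Aged Sham than in Young Sham (all regions 1.56%), 3 less and 2 more often in Young Bleo than in Young Sham (3.19% and 3.66%), 3 less often in Aged Bleo than in Young Sham (1.97%) and 1 more often than in Aged Sham (0.542%), and Ets1 -105.9 turned from less to more often called in Aged Sham than in Young Sham (5 points higher). A −log10 q of at least 5 gave 2 calls in Aged Bleo against Young Sham (all regions 3.05%). It also gave 7 calls more often and 0 less often in Young Bleo than in Young Sham (4.38% and 1.91%). Annotation with NM transcripts alone gave 4 calls less often in Aged Sham than in Young Sham (all regions 4.9%). In Young Bleo against Young Sham that annotation gave 6 more often and 1 less often (3.98% and 1.96%). Requiring peaks to cover 50% of a region gave 6 calls less often in Aged Sham than in Young Sham (all regions 6.12%). It gave 7 more often and 0 less often in Young Bleo than in Young Sham (4.59% and 2.37%). In Aged Bleo it gave 5 less often than in Young Sham (5.8%), 0 against Aged Sham and 4 less often than in Young Bleo (5.6%). Leaving out each replicate gave 0 to 1 presence calls in Aged Sham against Young Sham (all regions 1.09% to 2.11% less often), 0 to 3 in Young Bleo against Young Sham (1.09% to 2.34% more often), 1 to 5 in Aged Bleo against Young Sham (3.12% to 5.63% less often), and 0 to 1 in Aged Bleo against Aged Sham (at most 0.123% less and 0.215% more often) and against Young Bleo (0.353% to 0.834% less often). For strength it gave, against Young Sham, 0 to 1 limma calls for Aged Sham (all regions 0.258% to 1.5%) or Young Bleo mice (0.912% to 3.84%) and 1 to 4 for Aged Bleo mice (5.68% to 11.3%), with 1 left without Aged Bleo 3. With log2 fragments at the summit as the measure, limma called 3 of 24 members in Young Bleo against Young Sham (all regions 15.4%), 3 in Aged Bleo against Aged Sham (17.3%) and 4 in Aged Bleo against Young Sham (29.9%). The last 4 were Etv6 +154.2 and, newly, Etv6 +116.5, Etv6 +207.9 and Ets1 -104.1, while Ets2 +48.1 and Fli1 +35.1 were lost (limma adjusted p = 0.1 and 0.108). With centred log2 fold enrichment it called 0 in Young Bleo against Young Sham. Relative to the share of all regions, Erg was 10.9 points higher in Aged Sham, where its number of called regions was slightly lower. Why these values moved was not tested. Of the values that answer a comparison, 204 stayed and 64 moved under an alternative. Of the single genes and regions, 566 stayed on the same side of the threshold, 129 lost a call and 5 gained one. Another 2 turned direction with a call on 1 side (Ets1 -105.9 and Erg, above). Turns of direction without a call on either side are among the 566. For Ets1 in Aged Sham against Young Sham, the difference was -2.9 called regions but 2.02 points relative to the share of all regions.

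With the replicate number as a block, limma called, against Young Sham, 1 member for Aged Sham (all regions 0.62%), 1 for Young Bleo (2.17%) and 2 for Aged Bleo (10.6%), since Fli1 +35.1 was lost (difference -21.1, limma adjusted p = 0.0556), and 0 elsewhere. Same-numbered mice share only a number: the correlation of their deviations ranged from -0.192 to 0.335 over 25 pairs, and 4 of 18 samples correlated best with their own number. Paired presence tests could not reach the threshold, with a smallest exact p of 0.125 for 4 pairs and 0.0625 for 5. Calls at 10 to 30 fragments run from low peaks up to about the median peak of a list, 26 to 35 fragments. The lowest of them are near the limit of detection, so an absent peak need not be a closed site.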
